A study of Mus musculus with 4 samples.

Results

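The genes described here are 34 integrin and focal adhesion genes from a fixed list, chosen by name with earlier results of these data known. All 34 were among the 32286 features counted in the 4 libraries. They comprise 11 integrin α subunits, 5 integrin β subunits, 17 proteins of the intracellular adhesion complex and the tetraspanin Cd151. Vascular fragments from the cerebra of 3-month-old mice were captured with magnetic beads against PECAM1, dissociated, and read with 10x Genomics 3′ chemistry, 1 library per mouse. The comparison was between 2 Angpt2-WT mice (Angpt2+/+, WT1 female and WT2 male) and 2 constitutive Angpt2-KO mice (Angpt2-/-, KO1 female and KO2 male). ANGPT2 is a ligand of the endothelial receptor TEK that can also act through integrins, so the question was how the adhesion genes of the vessel wall differ without it, in endothelial cells (ECs) and in the cells next to them.

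Integrins are heterodimers of an α and a β chain that span the plasma membrane and bind matrix proteins or cell surface ligands outside the cell. Talins and kindlins bind the β tail and activate it. A complex of ILK, PINCH (Lims1) and parvin, together with vinculin, α-actinin, zyxin and tensins, couples the occupied integrin to actin, and the kinases FAK (Ptk2) and SRC pass the signal on through paxillin and p130CAS (Bcar1). In brain vessels, ECs and pericytes sit on a shared basement membrane of laminins, collagen IV and nidogens, to which β1 integrins bind.

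A total of 17999 of 19809 barcodes had over 500 genes and under 10% mitochondrial UMIs, with 31753395 to 42903731 UMIs per mouse, and any 2 libraries had 1 to 16 barcodes in common. The beads selected endothelium, and 14144 cells were brain ECs, in which all 7 endothelial markers were found. The other classes used here were 813 fenestrated endothelial-like, 596 pericyte-like, 707 smooth muscle-like, 905 microglia-like, 274 B cell-like, 85 T or NK cell-like and 242 erythrocyte-like cells, named from listed markers. Levels are given as CPM, the UMIs of a gene in a class scaled to 1000000 UMIs of that class in that mouse. Angpt2 itself was at 10.7 and 9.93 CPM in brain ECs of WT1 and WT2 and at 64.9 and 41.0 CPM in those of KO1 and KO2. The allele lacks exon 4, which 3′ reads do not cover, so this does not check the labels. The non-endothelial classes also held endothelial markers. The summed level of the 7 endothelial markers was 58.8% to 64.8% of that of brain ECs in pericyte-like cells, 36.3% to 56.7% in smooth muscle-like cells, 7.63% to 18.7% in microglia-like cells and 80.9% to 94.1% in erythrocyte-like cells. For the non-endothelial classes, values are therefore also given in the cells whose endothelial marker share was under 20% of the brain EC median of the same mouse. These were 321 pericyte-like, 458 smooth muscle-like and 832 microglia-like cells, with endothelial marker levels of 2.30% to 3.39%, 1.38% to 1.95% and 1.06% to 2.19% of those of brain ECs.

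The genes that differed most between genotypes lie on several chromosomes of the mouse genome build GRCm38. Itga4 is at chr2:79255426-79333123 on the plus strand, Itgb1 at chr8:128685654-128733200 (plus), Itgb3 at chr11:104608000-104670476 (plus), Parva at chr7:112427505-112591692 (plus), Tns3 at chr11:8431652-8664535 (minus) and Tln2 at chr9:67217087-67559703 (minus). The 250 bases upstream of the RefSeq start (GRCm38.p6) are shown for Itga4, Itgb1 and Tns3, because these genes were higher together in KO brain ECs. RefSeq promoters matched 26 of the 34 symbols. Capitals mark matches on either strand to GGAATG (the core of the TEAD motif), TGANTCA (AP-1), TGTTTAC (forkhead) or GTGGGAA (RBPJ), of which the first and the last can overlap.
Itga4, chr2:79255176-79255425, plus strand: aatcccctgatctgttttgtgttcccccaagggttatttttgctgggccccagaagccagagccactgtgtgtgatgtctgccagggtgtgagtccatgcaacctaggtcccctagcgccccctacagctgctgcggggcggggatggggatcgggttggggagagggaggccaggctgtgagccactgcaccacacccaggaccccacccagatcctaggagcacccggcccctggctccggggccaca
Itgb1, chr8:128685404-128685653, plus strand: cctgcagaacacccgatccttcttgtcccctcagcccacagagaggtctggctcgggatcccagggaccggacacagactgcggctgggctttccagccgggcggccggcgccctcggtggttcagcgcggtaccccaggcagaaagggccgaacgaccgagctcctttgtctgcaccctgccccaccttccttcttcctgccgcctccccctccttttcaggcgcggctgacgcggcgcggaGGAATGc
Tns3, chr11:8664536-8664785, minus strand: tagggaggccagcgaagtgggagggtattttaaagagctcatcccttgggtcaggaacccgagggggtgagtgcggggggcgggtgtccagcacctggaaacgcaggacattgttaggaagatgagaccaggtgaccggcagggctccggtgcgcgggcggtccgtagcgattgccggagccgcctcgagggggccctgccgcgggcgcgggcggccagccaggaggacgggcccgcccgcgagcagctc
The single match was a GGAATG at the 3′ end of the Itgb1 window. Of all 32851 RefSeq promoter windows of this length, 12.6% held GGAATG, 6.75% TGANTCA, 3.17% TGTTTAC and 5.42% GTGGGAA, and among the 26 members the numbers were 3, 2, 0 and 2. A match describes letters only and is not a binding site.

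The integrin chains differed in level between cell classes. Classes were formed by clustering the same cells, so these levels are a description with no test. In this and the next paragraph, levels of pericyte-like, smooth muscle-like and microglia-like cells are those of their cells with low endothelial RNA. Itga6, a laminin-binding chain, was highest on average in brain ECs, with 527 to 707 CPM in the 4 mice, against 4.89 to 26.2 CPM in the pericyte-like and smooth muscle-like cells with low endothelial RNA. Itgb5 and the haematopoietic kindlin Fermt3 were high in microglia-like cells, at 510 to 609 CPM and 226 to 275 CPM against 1.46 to 3.30 CPM and 1.73 to 4.34 CPM in brain ECs. Mouse values in these pairs did not overlap. Itga8 was at 102 to 145 CPM in smooth muscle-like cells and at 5.71 to 21.0 CPM in pericyte-like cells. Itga7, another laminin-binding chain, was at 133 to 155 CPM in smooth muscle-like cells and at 75.5 to 160 CPM in pericyte-like cells, which overlapped. Fenestrated endothelial-like cells stood apart from brain ECs by Itga9, at 66.4 to 102 CPM against 1.30 to 2.93 CPM, and by Itgb4, at 13.7 to 28.0 CPM against 1.20 to 2.95 CPM. Itga2b, the platelet α chain, was also highest on average in brain ECs, at 8.46 to 11.5 CPM.

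**Figure D1:**
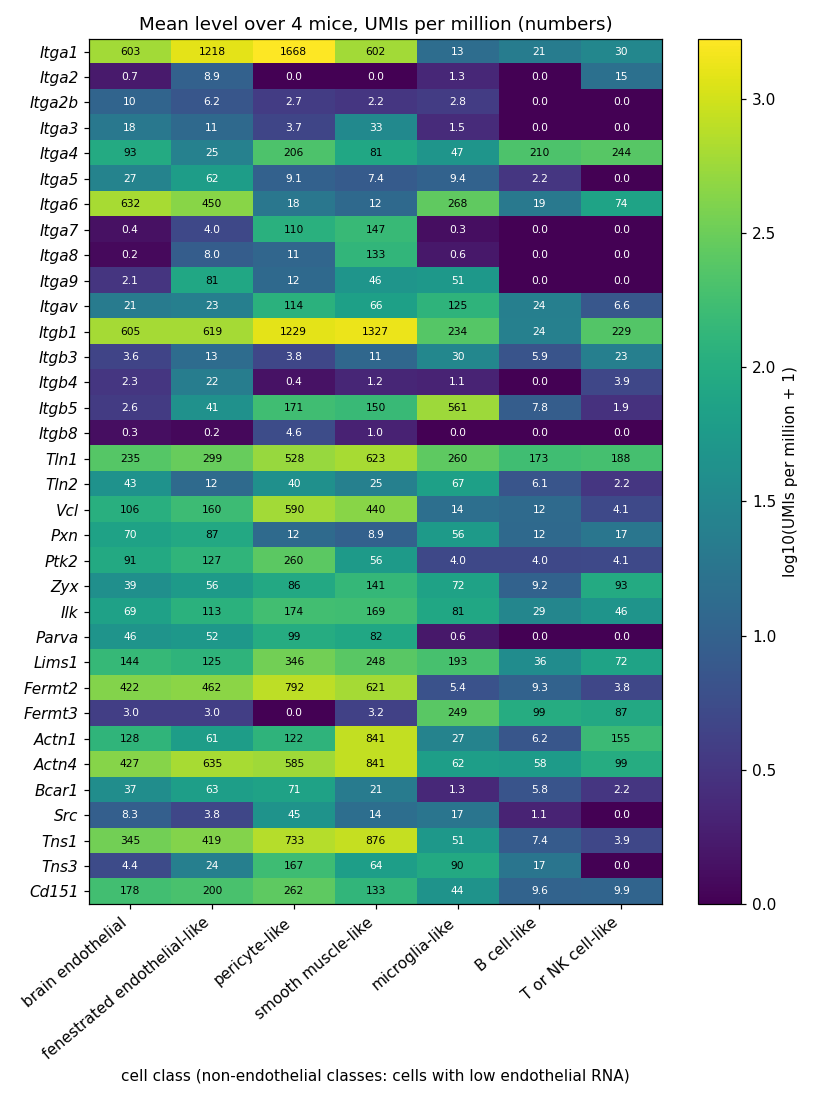
Mean level of each of the 34 genes over the 4 mice in CPM (numbers) in 7 cell classes, coloured by log10(level + 1). The non-endothelial classes hold only cells with low endothelial RNA, and Itga6 reads 632 in brain ECs while Itgb5 reads 561 in microglia-like cells.

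Each member was assigned to the class of its highest mean. The classes were brain ECs, fenestrated endothelial-like cells and the pericyte-like, smooth muscle-like, microglia-like and lymphocyte classes (B, and T or NK) restricted to low endothelial RNA. Of the 34 genes, 12 had their highest mean in pericyte-like cells with low endothelial RNA, 9 in smooth muscle-like cells, 5 in microglia-like cells, 4 in fenestrated endothelial-like cells, 2 in brain ECs and 2 in T or NK cell-like cells. No share over all genes stands beside these counts, so they only describe the members. Some rest on few UMIs, such as Itgb8 in pericyte-like cells (8 UMIs, 0 in WT1) and Itga2 in T or NK cell-like cells (6 UMIs). The cluster of 233 choroid plexus epithelium-like cells, with 9 to 176 cells per mouse, was not among these classes. Itgb8, an integrin chain that pairs with αv, was the 1 member with a higher mean there, at 104 to 163 CPM in its cells with low endothelial RNA. Vinculin (Vcl), which links talin to actin, was at 530 to 657 CPM in pericyte-like cells, above the 404 to 490 CPM of smooth muscle-like cells and the 94.0 to 119 CPM of brain ECs. Over all cells of these classes, Vcl was at 276 to 321 CPM in pericyte-like and 279 to 365 CPM in smooth muscle-like cells, which overlapped. The kindlin Fermt2 showed the same order, with 721 to 913 CPM, 593 to 643 CPM and 376 to 462 CPM. Focal adhesion kinase (Ptk2) was at 177 to 313 CPM in pericyte-like cells, 39.1 to 69.8 CPM in smooth muscle-like cells and 84.8 to 96.9 CPM in brain ECs. Actn1, an actin crosslinker, was at 752 to 887 CPM in smooth muscle-like cells and at 42.7 to 222 CPM in pericyte-like cells. Tns3, a tensin, was at 135 to 202 CPM in pericyte-like cells and at 71.8 to 108 CPM in microglia-like cells. In brain ECs of WT mice it was low, at 2.12 and 1.89 CPM, or 56 and 64 UMIs.

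In brain ECs, 7 adhesion genes differed between the genotypes. Higher in KO mice were the integrin chains Itga4, Itgb1 and Itgb3 with the adaptors Parva and Tns3, and lower were the talin Tln2 and zyxin (Zyx). UMIs were summed per mouse and class and compared by the quasi-likelihood test of edgeR, and p-values were adjusted by Benjamini-Hochberg over the whole table of tested genes, with a threshold of 0.05. Of the 34 genes, 32 passed the filter on low counts, so 5 higher and 2 lower of 32 compare with a background of 5.87% of 13516 genes called, 3.8% higher and 2.07% lower. The median log2 fold change was 0.16 over the members and -0.02 over all genes.

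Itga4, the α4 chain that pairs with β1 and binds VCAM1 and fibronectin, was at 19.0 and 15.7 CPM in WT1 and WT2 and at 219 and 119 CPM in KO1 and KO2. It was higher by 3.27 ± 0.27 (log2 fold change ± SE, adjusted p = 0.0016, edgeR), and each KO mouse was far above both WT mice. Its partner Itgb1, the β chain of most matrix integrins, was at 450 and 433 CPM in WT mice and at 855 and 684 CPM in KO mice (0.78 ± 0.16, adjusted p = 0.026, edgeR). The groups did not overlap. Itgb3, which pairs with αv or αIIb, stayed rare, at 2.12 and 1.57 CPM in WT mice and 6.96 and 3.64 CPM in KO mice (1.51 ± 0.34, adjusted p = 0.042, edgeR). These levels rest on 56, 53, 157 and 80 UMIs in WT1, WT2, KO1 and KO2. The αv chain itself, Itgav, was at 21.7 and 17.7 CPM in WT mice and at 23.8 and 20.6 CPM in KO mice, which overlapped.

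Among the adaptors, α-parvin (Parva) was at 34.1 and 32.1 CPM in WT mice and at 66.1 and 52.0 CPM in KO mice (0.82 ± 0.14, adjusted p = 0.012, edgeR). Tns3 was at 2.12 and 1.89 CPM in WT mice and at 9.18 and 4.41 CPM in KO mice (1.74 ± 0.34, adjusted p = 0.024, edgeR). In both genes KO1 was the higher of the KO mice. Tln2 was at 50.4 and 53.3 CPM in WT mice and at 30.7 and 36.9 CPM in KO mice (-0.63 ± 0.12, adjusted p = 0.022, edgeR). Its paralog Tln1, the main talin of ECs, was at 207 and 197 CPM against 274 and 262 CPM and did not pass the test. Zyx, a LIM protein of mature adhesions, was at 44.6 and 45.6 CPM in WT mice and at 32.7 and 33.8 CPM in KO mice (-0.46 ± 0.10, adjusted p = 0.041, edgeR). With 2 mice per genotype, most of these calls depended on single libraries. Only Itga4 was called whichever mouse was left out. The genes called over the whole table changed as well, and each of these fits has 1 mouse in a genotype. Zyx was also lost with the replicate number as a block (adjusted p = 0.053, edgeR), without TMM, under 5% mitochondrial UMIs and without cells with UMIs of other types, and Itgb3 without TMM and under 5% mitochondrial UMIs. In the named zones of brain ECs described below, Zyx was not called.

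**Figure D2:**
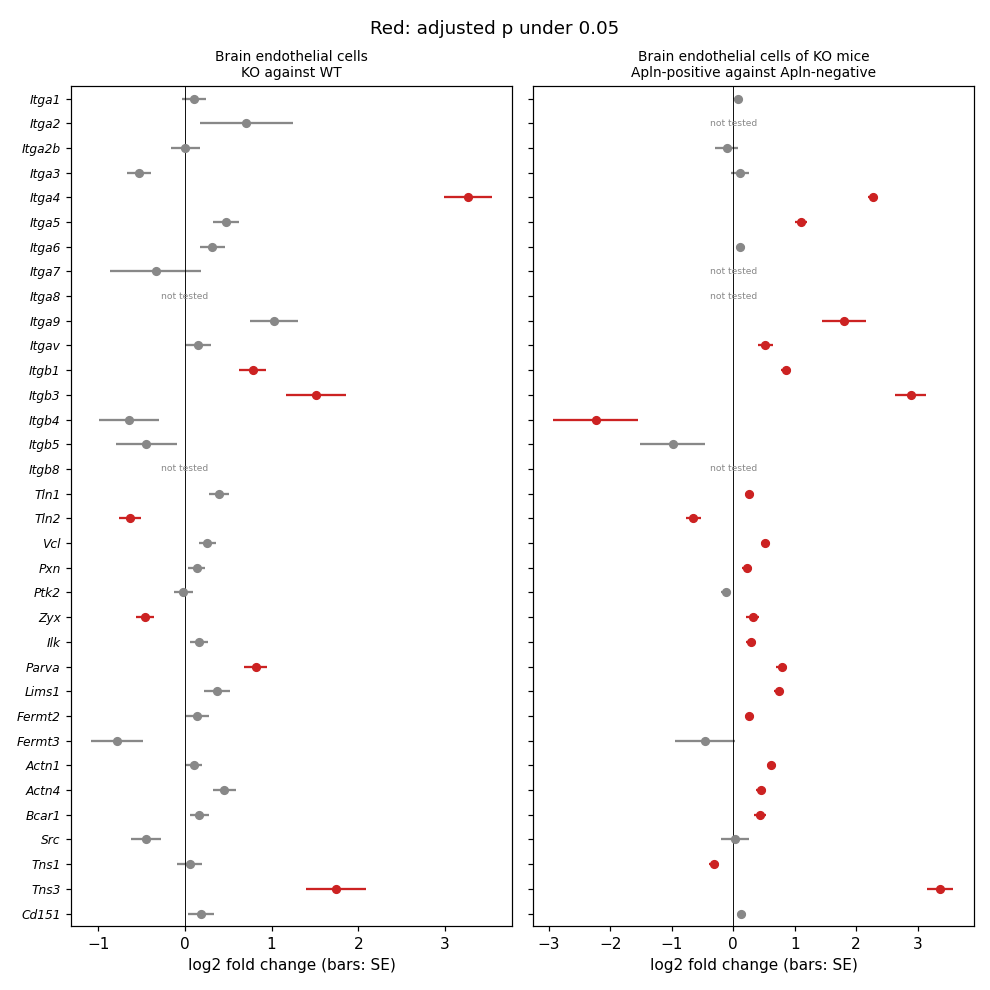
Log2 fold change with SE (bars) of the 34 genes in brain ECs, for KO against WT (left) and for Apln-positive against Apln-negative cells of KO mice (right). Red points have an adjusted p under 0.05. Itga4, at 3.27 and 2.27, and Tns3, at 1.74 and 3.37, lie far to the right in both panels.

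Brain ECs were split into zones by their markers. A cluster of 2336 brain ECs got no zone name and was not tested as a zone. It held 644 and 946 cells of WT1 and WT2 and 310 and 436 of KO1 and KO2, and its best-scoring marker list was the venous one. Among 9323 capillary-like cells, 7 of the 29 members tested were higher in KO mice and 1 was lower, against a background of 7.93% of genes called, 5.37% higher and 2.57% lower. The higher genes were Itga4 (2.94 ± 0.25), Tns3 (2.33 ± 0.45), Itgb3 (2.06 ± 0.40), Parva (1.26 ± 0.18), Itgb1 (0.88 ± 0.16), and the α-actinins Actn4 (0.61 ± 0.12) and Actn1 (0.40 ± 0.10), given as log2 fold change ± SE, and Tln2 was lower (-0.69 ± 0.13). Actn4 was at 316 and 355 CPM in WT mice and at 555 and 484 CPM in KO mice. Actn1 was at 82.1 and 92.3 CPM against 123 and 110 CPM, and both groups of mice stayed separate. Actn1 was not called by DESeq2, without TMM or without cells with UMIs of other types. The members called here, and the genes called over the whole table, changed with the mouse left out. No member was called in all of these fits, each of which has 1 mouse in a genotype. With the replicate number as a block, 12 were higher and 1 lower (background 13.8%).

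One cluster of capillary-like cells came almost wholly from KO mice. It held 50.9% of the capillary-like cells of KO1 and 26.6% of those of KO2, against 1.56% and 1.21% of those of WT1 and WT2. Members and Apln took no part in the clustering, and 1729 capillary-like cells formed a cluster led by Apln and Esm1, with 28 and 33 cells from WT1 and WT2 and 810 and 858 from KO1 and KO2. Itga4 was at 206 and 191 CPM in the few WT cells of this cluster. In its KO cells Itga4 was at 378 and 305 CPM, against 82.4 and 63.8 CPM in their other capillary-like cells. For Itgb3 these levels were 12.4 and 7.99 CPM against 2.14 and 2.24 CPM, and for Tns3 they were 17.5 and 10.9 CPM against 1.34 and 1.32 CPM. Tln2 had the reverse order, at 13.6 and 17.3 CPM in the KO cells of the cluster against 37.7 and 27.1 CPM in the other capillary-like cells. The cells were grouped on their own counts, so these values are a description.

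Outside that cluster 2 of 28 members tested were called in capillary-like cells, both higher in KO mice (background 1.31%). Itga4 was at 25.7 and 24.0 CPM in WT mice and at 82.4 and 63.8 CPM in KO mice (1.54 ± 0.15, adjusted p = 9.8e-05, edgeR). Parva was at 23.3 and 24.5 CPM against 35.1 and 38.9 CPM (0.64 ± 0.14, adjusted p = 0.035, edgeR). Itgb1 was at 421 and 437 CPM against 536 and 529 CPM and did not pass the test (0.30 ± 0.14, adjusted p = 0.54, edgeR). In all brain ECs without that cluster, Itga4 (1.76 ± 0.15, adjusted p = 0.0018, edgeR) and Parva (0.56 ± 0.10, adjusted p = 0.040, edgeR) were the 2 members called of 32 tested (background 1.33%), while Itgb1 was at 0.46 ± 0.12 (adjusted p = 0.15, edgeR) and Zyx at -0.44 ± 0.10 (adjusted p = 0.10, edgeR). For Tns3 the sign turned in capillary-like cells (-0.36 ± 0.50), with 1.27 and 2.09 CPM in WT mice and 1.34 and 1.32 CPM in KO mice.

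Member calls in the arterial-like and venous-like zones depended on the setting. Among 1773 arterial-like cells, 0 of 28 members tested passed (background 0.408%, 6 members with unadjusted p under 0.05 by edgeR and 0 called by DESeq2). Arterial Itga4 was at 16.1 and 13.1 CPM in WT mice and at 51.2 and 22.9 CPM in KO mice (1.25 ± 0.28, adjusted p = 0.055, edgeR). Its call changed with the mouse left out, in fits with 1 mouse in a genotype. Itga4 was the 1 arterial member called with the replicate number as a block (background 1.25%), with no filter (background 177 of 17197 genes), under 5% mitochondrial UMIs (41 of 10740) and without cells with UMIs of other types (75 of 10641). Among 712 venous-like cells, 0 of 26 passed (background 0.0579%, 3 members with unadjusted p under 0.05 by edgeR). DESeq2 called 1 of them, Itgb1 (background 76 of 10356 genes). Itgb1 was at 465 and 452 CPM in arterial-like cells of WT mice against 643 and 698 CPM in KO mice. In venous-like cells its levels were 445 and 410 CPM against 660 and 645 CPM. The genotypes stayed separate in both zones, which with 2 mice each is a description and no test. Member calls in venous-like cells also changed with the mouse left out, as did the genes called over the whole table. Tln2 was at 90.5 and 82.0 CPM in venous-like cells of WT mice and at 92.8 and 86.7 CPM in those of KO mice, which overlapped. Zyx, lower over all brain ECs, was not called in capillary-like (-0.07 ± 0.13), arterial-like (0.006 ± 0.20) or venous-like cells (-0.27 ± 0.19). The part of the zone mix in its difference was not tested. In fenestrated endothelial-like cells, 0 of 29 passed (background 0%, 2 members with unadjusted p under 0.05 by edgeR and 0 called by DESeq2). The call of Itga4 there changed with the mouse left out.

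**Figure D3:**
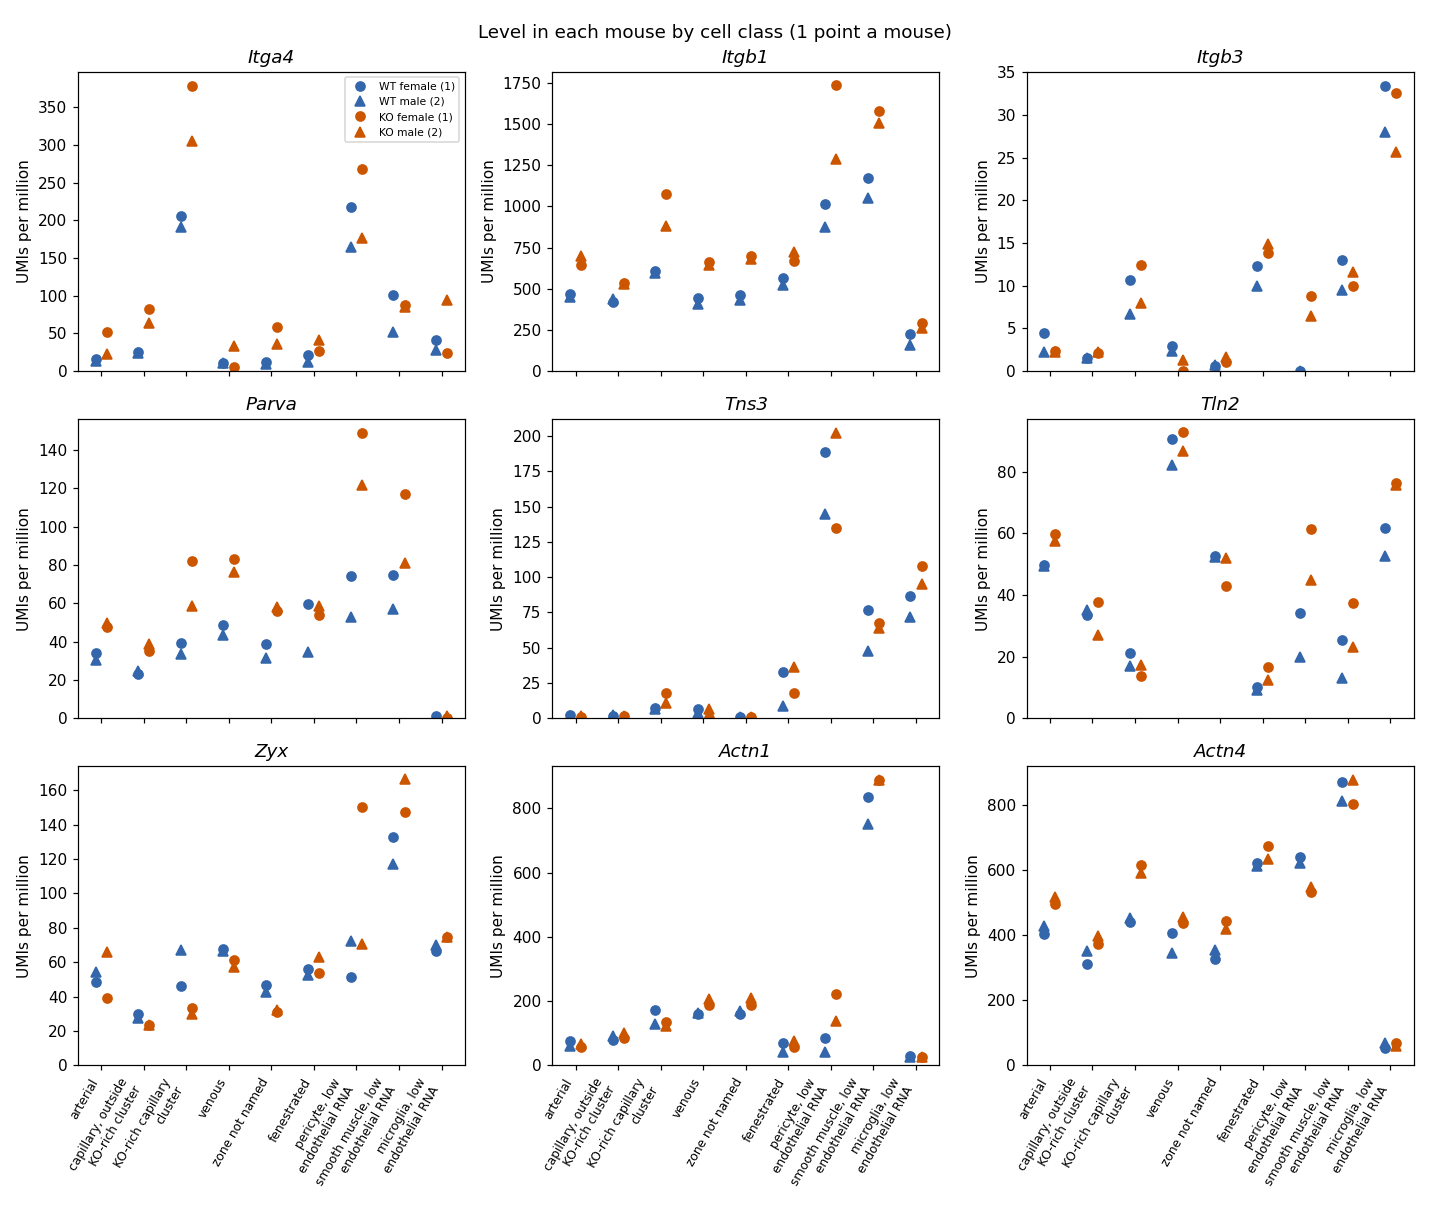
Level of 9 genes in each mouse (CPM, axes from 0) by cell class, with blue for WT, orange for KO, circles for the females (mice 1) and triangles for the males (mice 2). Itga4 of KO mice reads 378 and 305 in the KO-rich capillary cluster and 268 and 176 in pericyte-like cells with low endothelial RNA, where the WT mice read 217 and 164.

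Apelin (Apln) is a peptide made by endothelial tip cells, and it was used to split the ECs of KO mice. Apln UMIs were found in 18.7% of brain ECs of KO1 (391 cells, exact 95% binomial interval 17.1% to 20.5%) and in 7.41% of those of KO2 (307 cells, 6.63% to 8.25%). The shares in WT mice were 1.18% (0.836% to 1.62%) and 1.36% (1.05% to 1.74%), and the intervals cover counting error only. Microglia-like cells, which should lack Apln, held it in 4.15% of cells of KO1 and 1.85% of cells of KO2. Median depth was 12625 UMIs in the Apln-positive and 6964 in the Apln-negative ECs of KO1, 5884 and 3794 in KO2, and 6265 and 3497 in the microglia-like cells.

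Apln-positive ECs of KO mice differed from their Apln-negative neighbours in 21 of the 30 members tested, 18 higher and 3 lower, against a background of 26% of 12311 genes, 14.8% higher and 11.3% lower. Cells of the same mouse were compared with the mouse as a term, and the small p-values rest on 2 mice and on a spread shared across genes, so sizes are given here. Tns3 was at 2.03 and 2.20 CPM in the negative and at 24.2 and 19.2 CPM in the positive cells of KO1 and KO2 (log2 fold change 3.37 ± 0.21). Itgb3 was at 2.36 and 1.94 CPM against 16.6 and 15.0 CPM (2.88 ± 0.25). Itga4 was at 108 and 74.9 CPM against 453 and 416 CPM (2.27 ± 0.08). In these 3 genes both mice moved by a similar amount.

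Other integrin chains also differed. Itga5, the fibronectin receptor chain, was at 24.7 and 24.4 CPM in the negative and 57.7 and 44.8 CPM in the positive cells (1.10 ± 0.10), and Itgb1 was at 668 and 623 CPM against 1245 and 1086 CPM (0.86 ± 0.08). Itga9 (1.80 ± 0.35, with 1.38 and 2.25 CPM against 6.18 and 5.95 CPM) and Itgav (0.52 ± 0.12, with 20.19 and 20.04 CPM against 31.4 and 24.5 CPM) were also higher. Itgb4, a laminin receptor chain, was lower (-2.23 ± 0.69), from 1.57 and 2.67 CPM to 0.412 and 0.350 CPM, which are 3 and 1 UMIs. In KO1 and KO2, Itgb4 was at 9.20 and 18.1 CPM in arterial-like and at 0.467 and 0.438 CPM in capillary-like cells. Arterial markers summed to 546 and 841 CPM in the Apln-negative and to 129 and 186 CPM in the Apln-positive cells. In capillary-like cells alone Itgb4 was not called, and the part of the zone mix was not tested. Itga6, at 700 and 693 CPM against 710 and 799 CPM, did not pass the test.

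Among the members, 3 genes of the ILK complex were higher in the Apln-positive cells. Parva was at 51.6 and 48.8 CPM against 96.2 and 73.5 CPM (0.79 ± 0.08), Lims1 at 152 and 128 CPM against 268 and 198 CPM (0.74 ± 0.07), and Ilk at 69.3 and 70.9 CPM against 86.8 and 81.9 CPM (0.29 ± 0.08). Ilk was not called by DESeq2 (adjusted p = 0.42) or in thinned cells, and its sign turned outside the KO-rich cluster (-0.12). The other PINCH gene, Lims2, which is no member, was lower (-0.36 ± 0.08). Actn1 (0.62 ± 0.07) was at 113 and 125 CPM against 181 and 182 CPM, and Actn4 (0.45 ± 0.08) at 463 and 453 CPM against 644 and 600 CPM. Vcl (0.52 ± 0.08) was at 102 and 111 CPM against 137 and 169 CPM.

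The scaffold Bcar1 was at 38.2 and 34.9 CPM against 46.4 and 54.2 CPM (0.44 ± 0.10). Smaller differences of the same sign were found for Zyx, at 29.7 and 33.3 CPM against 39.1 and 37.1 CPM (0.31 ± 0.10), and for Fermt2, at 429 and 422 CPM against 530 and 484 CPM (0.26 ± 0.08). Tln1 was at 259 and 256 CPM against 307 and 305 CPM (0.26 ± 0.07), and paxillin (Pxn) at 72.2 and 70.6 CPM against 81.7 and 85.4 CPM (0.23 ± 0.08). Zyx was higher here and lower in all brain ECs of KO than of WT mice, although that difference was called in no zone tested. The talin Tln2 was lower, at 35.7 and 38.1 CPM against 20.3 and 28.3 CPM (-0.65 ± 0.11), and so was the tensin Tns1, at 371 and 375 CPM against 279 and 322 CPM (-0.31 ± 0.08). Ptk2 (-0.11) and Src (0.03) were not called. Besides Ilk, DESeq2 did not call Bcar1, Zyx, Tln1, Pxn, Tln2, Itgav or Itgb4, and Pxn was not called in capillary-like cells alone.

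Depth and cluster both moved with the Apln label. In cells thinned to 2000 UMIs each, 8 of 27 members tested were called (background 7.32%), all higher, namely Actn1, Actn4, Itga4, Itga5, Itgb1, Itgb3, Lims1 and Tns3. Of the Apln-positive cells, 76.2% in KO1 and 59.9% in KO2 were in the KO-rich cluster. Outside it 1 of 27 members tested, Actn1, was called (0.66 ± 0.09), near the background of 4.9%, and Itga4 was not (0.31 ± 0.13, adjusted p = 0.19, edgeR).

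Among cells named pericyte-like, 6 of 28 members tested were higher in KO mice and 0 lower, against a background of 6.42% of genes called, 4% higher and 2.42% lower. They were Itga4, Itga6, Itgb1, Itgb3, Parva and Actn1. DESeq2 (background 2.74%) and edgeR without cells with UMIs of other types (background 2.54%) each called Itga4, Itga6 and Itgb1 alone. Itga6 was at 324 and 295 CPM in WT mice and at 568 and 511 CPM in KO mice (0.77 ± 0.18, adjusted p = 0.0099, edgeR). Itga4 was at 137 and 97.8 CPM against 420 and 276 CPM (1.57 ± 0.22, adjusted p = 0.00015, edgeR), and the groups did not overlap for either gene. Itgb3 was at 1.69 and 1.01 CPM against 16.02 and 9.25 CPM (3.31 ± 0.73, adjusted p = 0.0066, edgeR), where the WT levels rest on 1 UMI in each mouse. Itgb1 was at 647 and 619 CPM against 1311 and 1099 CPM (0.90 ± 0.17, adjusted p = 0.0027, edgeR), Parva at 57.4 and 43.4 CPM against 102 and 86.4 CPM (0.92 ± 0.21, adjusted p = 0.010, edgeR), and Actn1 at 116 and 84.7 CPM against 170 and 147 CPM (0.66 ± 0.19, adjusted p = 0.036, edgeR). In these cells too, only Itga4 was called whichever mouse was left out. The genes called over the whole table also changed with that mouse.

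The fraction of pericyte-like cells with low endothelial RNA moved with genotype. Their summed endothelial marker level was 58.8% and 60.2% of that of brain ECs in WT1 and WT2. In KO1 and KO2 it was 64.8% and 60.4%. Under 20% of the brain EC marker share was found in 66.2% and 66.7% of pericyte-like cells of WT1 and WT2 and in 45.9% and 46.8% of those of KO1 and KO2. The endothelial peptide gene Apln was at 585 CPM (KO1) and 291 CPM (KO2) in all pericyte-like cells, and in those under the limit at 6.996 CPM (KO1) and 35.3 CPM (KO2). Erythrocyte markers summed to 6972 CPM in all pericyte-like cells of KO1 and to 77.7 to 911 CPM in the other 3 mice, and their part in the levels was not tested. In the 321 cells under that limit, 0 of 22 members tested were called (background 0.0761%, 7 members with unadjusted p under 0.05 by edgeR), on 49, 98, 78 and 96 cells from WT1, WT2, KO1 and KO2. DESeq2 was not run on these cells. Itga6 was then at 5.71 and 19.7 CPM in WT mice and at 26.2 and 19.2 CPM in KO mice, and too low to be tested. Itga4 was at 217 and 164 CPM against 268 and 176 CPM, and the groups overlapped (0.22 ± 0.27, adjusted p = 0.87, edgeR).

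Other genes had positive differences in the pericyte-like cells with low endothelial RNA that did not pass the test. Actn1 was at 85.7 and 42.7 CPM in WT mice and at 222 and 138 CPM in KO mice (1.57 ± 0.38, adjusted p = 0.25, edgeR). Parva was at 74.2 and 52.6 CPM against 149 and 122 CPM (1.11 ± 0.30, adjusted p = 0.27, edgeR), and Itgb1 at 1016 and 877 CPM against 1739 and 1285 CPM (0.63 ± 0.21, adjusted p = 0.39, edgeR). Itgav, which was not called in all pericyte-like cells, was at 79.9 and 55.8 CPM against 196 and 125 CPM (1.28 ± 0.33, adjusted p = 0.27, edgeR). The mice of the 2 genotypes did not overlap in these 4 genes. With 2 mice per genotype and no share over all genes beside it, this is a description and no test.

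The collagen receptor chain Itga1 was at 1273 and 1255 CPM against 2473 and 1670 CPM (0.66 ± 0.21, adjusted p = 0.37, edgeR). Tetraspanin Cd151 had the opposite sign, at 303 and 315 CPM against 208 and 221 CPM (-0.58 ± 0.20, adjusted p = 0.39, edgeR). Itgb3 had 0 UMIs in WT mice, where 3 UMIs would be 17.1 and 9.85 CPM, and 5 and 2 UMIs in KO mice. Vcl, Fermt2, Ilk and Tns1 had log2 fold changes between -0.17 and 0.10. Fibroblast markers in these cells summed to 1153 and 1153 CPM in WT mice and to 1319 and 2336 CPM in KO mice, with 4 of 6 found and Lum and Pdgfra at 0. Their part in the levels was not tested.

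**Figure D4:**
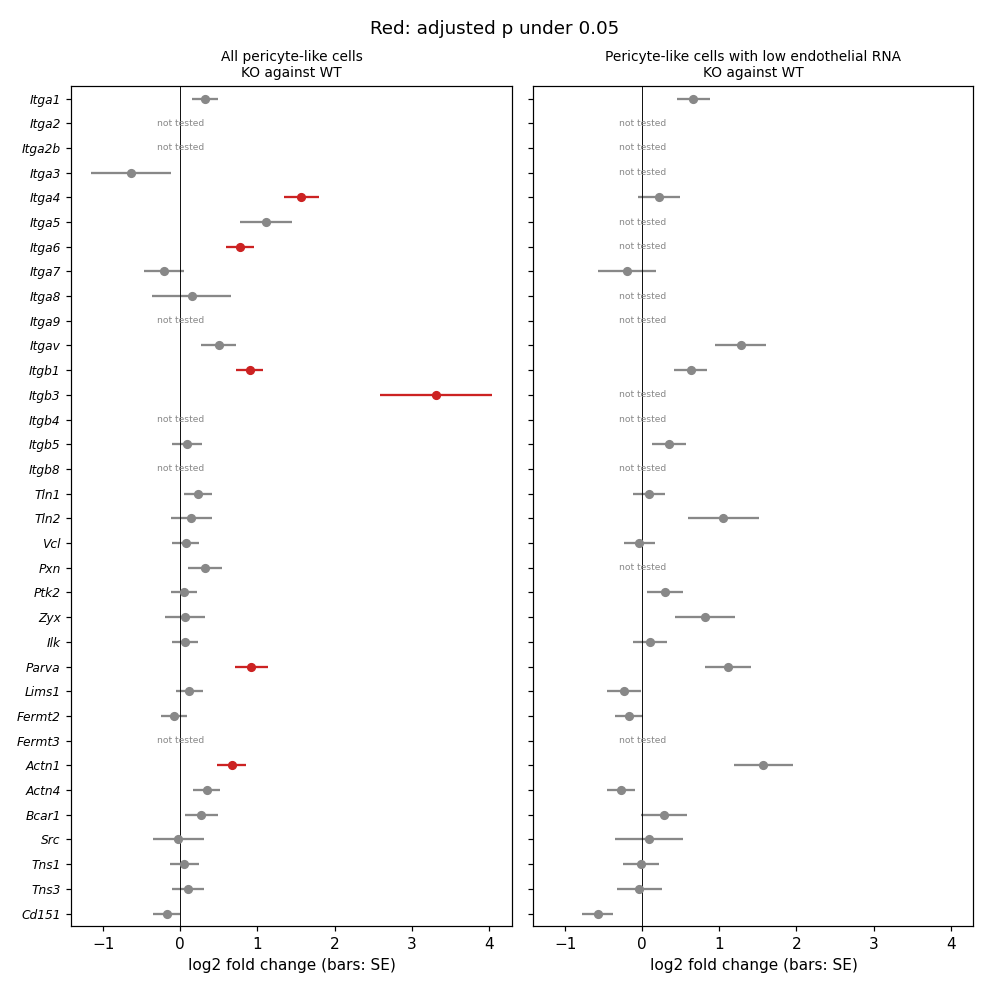
Log2 fold change with SE (bars) of the 34 genes between KO and WT mice in all pericyte-like cells (left) and in those with low endothelial RNA (right), with an adjusted p under 0.05 in red. Of the 6 red points on the left, none is red on the right, where Itga4 moves from 1.57 to 0.22 and Actn1 from 0.66 to 1.57.

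The other classes had few member calls. No member was called in smooth muscle-like cells (0 of 31, background 0%, 0 members with unadjusted p under 0.05 by edgeR and 0 called by DESeq2) or in their low endothelial RNA subset (0 of 25, background 0.179%, 0 with unadjusted p under 0.05 by edgeR). Itgb1 there was at 1175 and 1051 CPM in WT mice and at 1578 and 1504 CPM in KO mice (0.35 ± 0.21, adjusted p = 0.92, edgeR). No microglial member passed either (0 of 25, background 0.41%, 6 members with unadjusted p under 0.05 by edgeR and 0 called by DESeq2), although the call of Itga1 changed with the mouse left out. The same held in microglia-like cells with low endothelial RNA (0 of 21, background 0.182%, 4 with unadjusted p under 0.05 by edgeR).

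Tln1 in those cells was at 224 and 217 CPM in WT mice and at 287 and 314 CPM in KO mice (0.36 ± 0.14, adjusted p = 0.70, edgeR). Pxn was at 37.1 and 50.8 CPM against 65.8 and 69.8 CPM (0.56 ± 0.24, adjusted p = 0.72, edgeR). Itgb5, at 582 and 541 CPM against 609 and 510 CPM, overlapped. In B cell-like cells 0 of 11 members were called (background 0%, 3 with unadjusted p under 0.05 by edgeR and 0 called by DESeq2), and the call of Itga6 changed with the mouse left out. In erythrocyte-like cells 1 of 22 was called (background 1.72%), namely Itga4, at 18.6 and 5.32 CPM against 109 and 79.9 CPM (3.11 ± 0.35), in cells with an endothelial marker level near that of brain ECs. The calls of Itga6 and Itgb1 there changed with the mouse left out. DESeq2 called Itgb1 and gave no adjusted p for Itga4. Once cells with UMIs of other types were left out, 11 members could be tested, Itga4 not among them, and none was called by edgeR.

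Whether the genotype difference itself differed between cell classes was tested as an interaction, in which each class shares its mice with brain ECs. Between pericyte-like cells and brain ECs, 3 of 34 members differed (background 1.41%). The difference was smaller in pericyte-like cells for Itga4 (-1.66 ± 0.16, adjusted p = 4.0e-07, edgeR) and Tns3 (-1.63 ± 0.31, adjusted p = 0.0033, edgeR) and larger for Itga6 (0.47 ± 0.11, adjusted p = 0.029, edgeR). In the cells with low endothelial RNA, 5 of 33 differed (background 1.37%). Itga4 (-3.02 ± 0.28) and Tns3 (-1.71 ± 0.41) were again on the lower side, and Actn1 (1.53 ± 0.33), Tln2 (1.79 ± 0.49) and Zyx (1.31 ± 0.37) were on the higher side. Itga6 was not called in these cells (0.37 ± 0.59, adjusted p = 0.995, edgeR).

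For smooth muscle-like cells 2 of 34 differed from brain ECs (background 1.02%), with smaller differences for Itga4 (-2.82 ± 0.27) and Tns3 (-1.61 ± 0.37). Actn4 joined them at low endothelial RNA (-0.58 ± 0.15), where 3 of 33 differed (background 1.81%). For microglia-like cells 6 of 32 differed (background 2.38%). They were Itga4 (-2.89 ± 0.31), Tns3 (-1.29 ± 0.33), Itga1 (-0.89 ± 0.23) and Actn4 (-0.85 ± 0.21) on the lower side, and Tln2 (1.07 ± 0.23) and Fermt3 (1.04 ± 0.25) on the higher. At low endothelial RNA 6 of 31 differed (background 1.53%), and Itga4 (-2.75 ± 0.32), Tns3 (-1.41 ± 0.35), Tln2 (0.98 ± 0.24) and Fermt3 (0.92 ± 0.25) were among them, whereas Itga1 changed sign (0.85 ± 0.51, adjusted p = 0.73, edgeR). The others were Fermt2 (-3.12 ± 0.82), with 16 UMIs in all in these microglia-like cells, and Itga2b, whose 17 UMIs in them came from KO1 alone. The members that differed from brain ECs changed with the mouse left out, apart from Itga4, which stayed among them in all 3 classes.

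Integrin ligands were counted from a list of 36 that includes Angpt2, itself among the ligands called higher in brain ECs (2.34 ± 0.21). This list, like the other lists counted below, was chosen with earlier results of these data known. The counts are therefore a description. Of these 36 listed integrin ligands, 31 were tested in brain ECs and 12 were higher and 2 lower in KO mice (median log2 fold change 0.20), where 3.8% of all genes were higher and 2.07% lower. Thrombospondin 1 (Thbs1) was at 2.28 and 1.09 CPM in WT mice and at 53.8 and 24.0 CPM in KO mice (4.54 ± 0.45). The laminin β1 chain Lamb1 was at 2.73 and 1.65 CPM against 71.6 and 22.1 CPM (4.42 ± 0.55), and the matricellular protein Ccn2 at 30.6 and 26.7 CPM against 333 and 166 CPM (3.101 ± 0.29). Vcam1, a ligand of α4β1, was at 232 and 281 CPM against 83.0 and 132 CPM and was lower (-1.27 ± 0.21). Vcam1 is also among the markers used to name venous-like cells. These were 145 of 3221 and 369 of 4694 brain ECs in WT mice and 42 of 2086 and 156 of 4143 in KO mice. Vcam1 was called in none of the zones tested, and the part of the zone mix was not tested.

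Of 50 other adhesion proteins, 48 were tested and 7 were higher and 1 lower (median 0.14), beside the same background. They included the LIM proteins Pdlim1 (1.48 ± 0.29), at 1.55 and 2.01 CPM against 6.17 and 3.96 CPM, and Ajuba (1.14 ± 0.17), at 4.82 and 4.11 CPM against 10.3 and 9.60 CPM. The tetraspanin Cd9 was lower (-1.20 ± 0.19), at 130 and 196 CPM against 62.7 and 81.0 CPM. Of 10 further integrin genes, 2 were tested and 0 called.

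In the Apln comparison 19 of 31 ligands were higher and 6 lower (median 0.84), where 14.8% of all genes were higher and 11.3% lower, led by Lamb1 (5.13 ± 0.10) and Thbs1 (4.41 ± 0.10). Lamb1 was at 7.27 and 3.14 CPM in negative and at 206 and 149 CPM in positive cells, and Thbs1 at 6.55 and 7.06 CPM against 153 and 137 CPM. The elastic fibre protein Fbln5, a ligand of RGD-binding integrins, was lower (-3.83 ± 0.30), at 9.44 and 26.2 CPM against 0.824 and 1.40 CPM. Fbln5 is also a listed arterial marker. The arterial markers, Fbln5 included, summed to 546 and 841 CPM in negative and to 129 and 186 CPM in positive cells of KO1 and KO2. The part of the zone mix was not tested. Of the other adhesion proteins, 18 of 48 were higher and 4 lower (median 0.10), among them Pdlim1 (3.05 ± 0.26), Csrp1 (1.42 ± 0.07) and filamin A (Flna, 1.08 ± 0.08). Of the further integrin genes, 1 was tested and 0 called.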

How the data were processed

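The deposited values are raw UMI counts per gene and barcode in 4 libraries, which the authors made with Cell Ranger (6.1.2 per the labels, 6.1.1 per the file headers) on mm10 (GRCm38), without normalization. Cells with over 500 genes and under 10% mitochondrial UMIs were kept, the limits the study gives (31753395 to 42903731 UMIs per mouse). The members and lists were chosen with earlier results of these data known. Clustering used Seurat 5.3.0 (2000 variable genes without the members and Apln, 50 components, resolution 0.2, and 0.4 for ECs). A cluster was named from at least 3 listed markers in 25% or more of its cells, and these names were rebuilt here, which can differ from those of the study. UMIs were summed per mouse and class, with at least 30 cells in each mouse, and tested with edgeR 4.0.16 (default filter, TMM, quasi-likelihood, R 4.3.3), and the Apln contrast had the mouse as a term. The SE printed with edgeR values is the absolute log2 fold change divided by the square root of the F statistic. Scrublet (scanpy 1.11.5) marked 5 of 17999 cells, so it had not worked, and no doublets were removed. On simulated data 2-fold changes were recovered for 78% of 100 altered genes in brain ECs (13541 genes) and 44.9% of 98 in pericyte-like cells (9724 genes), and 4-fold changes for 100% and 92.9%. Each mouse is 1 library. Replicates 1 are female and replicates 2 male, the study speaks of 2 experiments without saying which mice shared one, and sex, experiment and mouse cannot be told apart between replicates. Members called in any comparison are given per mouse, and of each added list the 3 called genes with the largest change in brain ECs and in the Apln contrast, beside Vcam1 and Lims2, which were chosen after their values were seen. Alternatives were DESeq2 1.42.0, no TMM, no filter, a replicate block, fewer mitochondrial UMIs, omission of cells with UMIs of other types, of the KO-rich cluster and of each mouse, and 2 or more Apln UMIs, thinned cells or capillary-like cells for the Apln contrast. Low endothelial RNA cells, the omission of the cluster from all brain ECs and from the Apln contrast, and the crossed block were chosen after seeing the data.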

Additional observations from a re-analysis of the deposited data

Results flagged for a closer look

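The genotype difference of 11 member and class pairs differed from that of brain ECs by the interaction test (edgeR, adjusted over all genes tested). In pericyte-like cells these were Itga4 (-1.66 on the log2 scale), Tns3 (-1.63) and Itga6 (0.47). Itga6 was not called in the pericyte-like cells with low endothelial RNA (0.37 ± 0.59, adjusted p = 0.995, edgeR). In smooth muscle-like cells they were Itga4 (-2.82) and Tns3 (-1.61). In microglia-like cells they were Itga4 (-2.89), Tns3 (-1.29), Itga1 (-0.89), Actn4 (-0.85), Tln2 (1.07) and Fermt3 (1.04). In the microglia-like cells with low endothelial RNA, Itga1 had the opposite sign (0.85 ± 0.51, adjusted p = 0.73, edgeR) and Actn4 was not called. A negative value means that KO minus WT was lower in that class than in brain ECs, and both classes came from the same 4 mice.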

How the results depend on the processing

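Over the single gene results and their alternatives, 392 values kept direction and side of the threshold, 143 kept direction only, 24 moved by size with no test and 8 reversed. The cause was not tested. Counts of members called are given with the genes called of those tested in brackets. In brain ECs 7 (793 of 13516) became 11 with no filter (1606 of 20712), 11 with the crossed replicate pairing as a block (1358 of 13516) and 2 without the KO-rich cluster (175 of 13184). Leaving out 1 mouse also changed the members called in each class counted here, in fits with 1 mouse in a genotype. In capillary-like cells 8 (977 of 12318) became 14 with no filter (1902 of 19291), 13 with the replicate block (1696 of 12318) and 2 without the KO-rich cluster (152 of 11635). In pericyte-like cells 6 (629 of 9790) became 3 by DESeq2 (268 of 9790), 3 without cells with UMIs of other types (192 of 7566) and 0 at low endothelial RNA (4 of 5253). In arterial-like cells 0 (44 of 10792) became 1 with no filter (177 of 17197), with the replicate block (135 of 10792), under 5% mitochondrial UMIs (41 of 10740) and without cells with UMIs of other types (75 of 10641). In venous-like cells 0 (6 of 10356) became 1 by DESeq2 (76 of 10356). Apln contrasts with 1 mouse left out have no residual between mice and were not tested. With no filter, 0 became 1 in fenestrated endothelial-like cells (52 of 16317) and in microglia-like cells (202 of 16329). In B cell-like cells it stayed at 0 in the settings with all mice. In erythrocyte-like cells 1 (132 of 7695) became 2 with no filter (208 of 14497), 3 with the replicate block (226 of 7695) and 0 without cells with UMIs of other types (0 of 2021). For the Apln contrast 21 (3207 of 12311) became 13 by DESeq2 (1073 of 12311), 13 with no replicate block (1205 of 12311), 8 in thinned cells (730 of 9978) and 1 outside the KO-rich cluster (558 of 11398). The class difference was called for 5 members at low endothelial RNA in pericyte-like cells (3 before, 1 to 5 with 1 mouse left out), for 1 by DESeq2 and 1 with no TMM in smooth muscle-like cells (2 before, 1 to 7), and for 1 by DESeq2 in microglia-like cells (6 before, 1 to 10). The reversed values were Itgb3 (-0.043) and Tns3 (-0.47) in brain ECs and Tns3 (-0.36) in capillary-like cells without the KO-rich cluster, Fermt2 (-0.12), Ilk (-0.12), Itgav (-0.29) and Tln2 (0.33) in the Apln contrast outside it, and Itga1 (0.85) in the microglial difference at low endothelial RNA. The replicate number is tied to sex in the labels. Deviations of same-numbered mice correlated by 0.0885 over 13516 genes in brain ECs and by -0.14 without sex genes, and whether a number also marks a shared experiment is not given in the sources used here. The block called 985 genes against 793 and 7 members, 6 of them shared, and the crossed block called 1358 genes. Over all genes, brain ECs had 1606 calls with no filter and 175 without the KO-rich cluster. Without TMM the called genes of microglia-like cells were 9 higher and 0 lower against 13 and 24, and those of venous-like cells 35 and 9 against 4 and 2. With 2 mice per genotype, simulated 2-fold changes were missed in part, so a gene not called is not shown to be alike.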
